A study of Mus musculus with 9 samples.

Results

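The CXC chemokines are small secreted proteins named after a pair of cysteines with a single residue between them, and 10 of them were followed in mouse Mϕs (macrophages) that had been exposed to IL-4 or IL-6. The 10 genes are Cxcl1, Cxcl2, Cxcl3, Cxcl9, Cxcl10, Cxcl12, Cxcl14, Cxcl16, Pf4 and Ppbp. They were chosen by name, as the rows whose Ensembl identifier maps to these symbols, among 53379 genes with a deposited value. The cells came from the femur and tibia of wild-type C57BL/6 mice, whose age is not given in the sources used here, and 3 days of MCSF (CSF-1, the growth factor that drives Mϕ differentiation) at 10 ng/ml preceded the treatment. Control Mϕs then stayed in 10 ng/ml MCSF for 4 days. The treated groups had the same MCSF for the same time plus IL-4 at 10 ng/ml or IL-6 at 100 ng/ml, as the labels of each sample give the doses. The treatment text of the labels calls the IL-4 arm an IL-5 group in 1 place, the methods of the study name a higher dose of IL-4, and its legends name other doses and a shorter time. Each group has 3 libraries of polyadenylated RNA numbered #1 to #3, and the series names 3 mice. No step that purifies Mϕs from the other marrow cells is named.

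Chemokines guide leukocytes along a gradient by binding receptors that couple to G proteins. CXC chemokines with the residues ELR (glutamate, leucine, arginine) just before the cysteines, such as Cxcl1, Cxcl2 and Cxcl3, attract neutrophils through Cxcr2. Cxcl9 and Cxcl10 lack ELR, are induced by interferons and attract activated T cells and NK cells through Cxcr3. Pf4 (platelet factor 4) and Ppbp (pro-platelet basic protein) are best known from the granules of platelets and are also transcribed in some Mϕs. Cxcl16 is made as a membrane protein that binds Cxcr6 and takes up oxidized lipoprotein, Cxcl12 holds blood cell precursors in the marrow through Cxcr4, and Cxcl14 is an epithelial and homeostatic chemokine.

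The coding sequence that gives the family its name is shown for the 10 genes, since it separates the neutrophil-attracting members from the others. Each run is 18 bases read 5′ to 3′ along the coding strand from the GENCODE M21 transcripts, and covers the 3 codons before the first cysteine, that cysteine, the residue between and the second cysteine. Capitals mark the cysteine codons and, where present, the codons of ELR.
Cxcl1: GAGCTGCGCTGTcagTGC
Cxcl2: GAACTGCGCTGTcaaTGC
Cxcl3: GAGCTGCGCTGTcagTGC
Ppbp: GAACTGCGCTGCagaTGT
Pf4: gatcttagcTGTgtgTGT
Cxcl9: aatgcacgaTGCtccTGC
Cxcl10: acggtccgcTGCaacTGC
Cxcl12: agctaccgaTGCcccTGC
Cxcl14: gggtccaagTGTaagTGT
Cxcl16: gctggaagtTGTtctTGT

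ELR stood directly before the cysteines in 4 of the 10, Cxcl1, Cxcl2, Cxcl3 and Ppbp, and in none of the other 6. The run is the same in Cxcl1 and Cxcl3. Over their whole coding sequences Cxcl2 and Cxcl3 shared 89.7% of aligned bases (gaps not counted), the highest value among pairs of the 10. Cxcl1 shared 78.8% with Cxcl2. Cxcl14 and Cxcl16 had 80.2%, but over 293 aligned bases of the 738 in Cxcl16. Bases opposite gaps are left out, so values with this longer gene do not rank kinship. Of the 50-base stretches in Cxcl2 transcripts, 5.84% also occurred in Cxcl3, so a fragment from these stretches could be assigned to either gene. Cxcl1, Cxcl12, Cxcl14, Pf4 and Ppbp had no 50-base stretch in common with another gene.

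The values are FPKM (fragments per 1000000 in the library and per kilobase of exons), from libraries of 29988160 to 39909571 fragments. FPKM are per length, so levels of different genes can be compared. Groups were compared by their log2 fold change, the difference of mean log2(FPKM + 0.1) that limma fits over the 9 libraries, written log2FC from here on. A call needed a log2FC at or beyond ±1 and a Benjamini-Hochberg adjusted p under 0.05. The tested genes are the 12824 with a mean of at least 0.5 FPKM. Of the 10 chemokines 7 passed that filter, and Cxcl1, Cxcl9 and Cxcl12 come from a fit of the same kind with no filter, over 31047 genes. Cxcl3 passed only through its IL-6 libraries. The Mϕ genes Adgre1, Csf1r and Cd68 were high in all 9 libraries, Adgre1 between 106 and 523 FPKM. In 4 libraries, Control #1 to #3 and IL-4 #1, transcripts of intestinal Paneth and goblet cells made up 25.8 to 37.9 of every 1000000 fragments, against 0.0990 to 0.245 in the other 5. The first set thus holds every control and no IL-6 library, and the second every IL-6 and no control library. A set-adjusted fit, in which the set enters the model beside the groups, rests on IL-4 #1 against IL-4 #2 and #3, and its values are given where they change a call.

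In control Mϕs, Pf4 had the highest level of the 10, with 349.6 ± 73.3 FPKM (SD, n = 3), followed by Cxcl16 with 50.2 ± 4.19 and Ppbp with 47.6 ± 9.73. The ranges of Cxcl16 and Ppbp overlapped. Cxcl14 with 4.59 ± 0.253 FPKM and Cxcl10 with 4.28 ± 1.34 came next and overlapped as well, and Cxcl2 had 2.00 ± 0.192. Cxcl9, Cxcl1, Cxcl3 and Cxcl12 had means of 0.0342 to 0.257 FPKM and neighbors in that order overlapped. With IL-4 Pf4 stayed highest (144 ± 54.1), Ppbp (21.8 ± 10.5) and Cxcl16 (14.2 ± 2.94) overlapped, and Cxcl14 (3.75 ± 0.605) exceeded all members below it. With IL-6 the order was Pf4 (1531 ± 521), Ppbp (285 ± 92.7), Cxcl16 (101 ± 2.10), Cxcl2 (24.9 ± 3.18), Cxcl10 (5.85 ± 0.894) and Cxcl3 (3.11 ± 1.13), without overlap between neighbors. Pf4, Ppbp and Cxcl16 together made up 96.4% to 98.6% of the summed FPKM of the 10 genes in every library. That sum was 367 to 533 FPKM in control, 156 to 239 with IL-4 and 1331 to 2557 with IL-6, and the groups did not overlap.

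**Figure D1:**
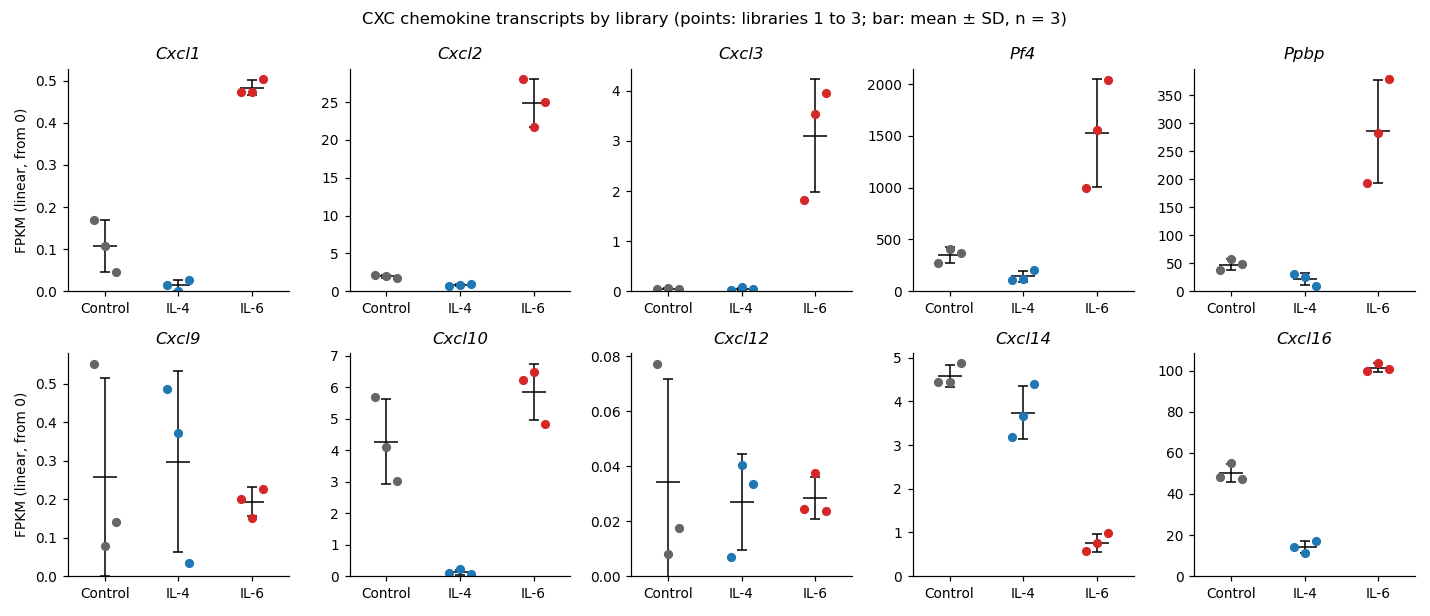
FPKM of each of the 10 genes (vertical axis, linear and starting at 0, with its own scale in each panel) without cytokine, with IL-4 and with IL-6. Points are the 3 libraries of a group, #1 to #3 from left to right, and bars are the mean ± SD, drawn only above 0; the IL-6 libraries of Cxcl2, Cxcl3, Pf4, Ppbp and Cxcl16 lie above every other library, those of Cxcl14 below, and the IL-4 libraries of Cxcl10 reach at most 0.220.

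With IL-4, 4 of the 10 chemokines fell and none rose. The 4 were Cxcl10, Cxcl16, Pf4 and Cxcl2. Of all tested genes 8.89% were called lower and 5.02% higher with IL-4, and in the fit without a filter 3.85% and 2.78%. With IL-6, 6 of the 10 rose, namely Cxcl3, Cxcl2, Ppbp, Pf4, Cxcl1 and Cxcl16, and Cxcl14 fell. The background here was 3.49% of tested genes higher and 1.89% lower with IL-6, and 1.61% and 0.773% without the filter. Set against IL-4 directly, IL-6 had 7 of the 10 called higher and Cxcl14 lower, against 13.6% of tested genes higher and 6.82% lower, and 6.34% and 3.56% without the filter. In the set-adjusted fit the count for IL-6 against control was 3 of 10 (Cxcl2, Cxcl3 and Cxcl14). It called 3 for IL-4 against control and 8 between IL-6 and IL-4. Set adjustment left, among tested genes, 1.46% called for IL-6, 8.66% for IL-4 and 25.5% between them. The share of called genes that were higher depended on the scaling: for IL-4 it was 36.1% as deposited, 48.8% after median-ratio rescaling and 49.3% after quantile normalization, and between IL-6 and IL-4 66.5%, 54.5% and 50.9%. The median log2FC of all tested genes with IL-4 was −0.20 as deposited and −0.01 after median-ratio rescaling, where Cxcl10, Cxcl16, Pf4 and Cxcl2 had −4.18, −1.63, −1.12 and −1.02. Each scaling left 3 members lower with IL-4, median-ratio rescaling without Pf4 and quantile normalization without Cxcl2, and changed no other member's call. The comparisons with control share the control libraries, so the members' directions in them are not independent of each other. These are bulk libraries, in which fewer cells of a type and less RNA per cell cannot be told apart.

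**Figure D2:**
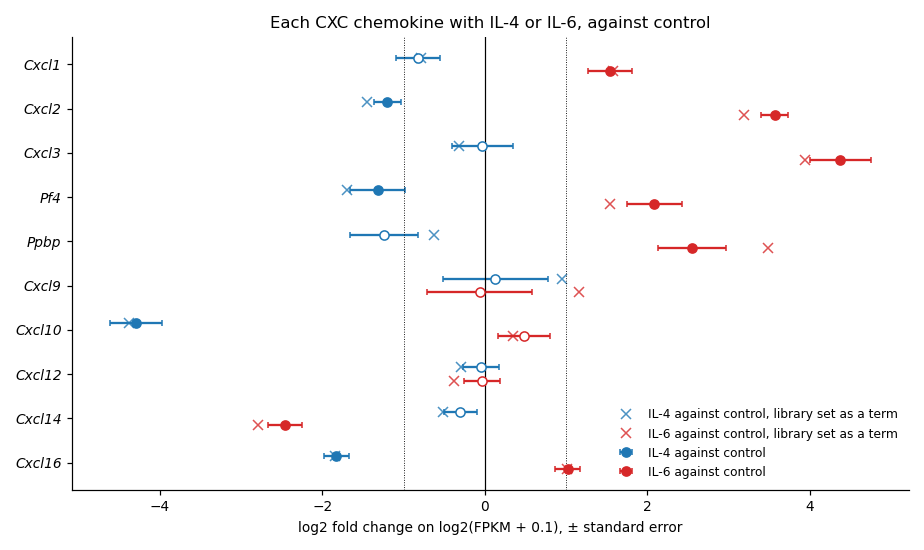
Log2FC against control (horizontal axis, on log2(FPKM + 0.1)) of each gene with IL-4 (blue) and IL-6 (red), with the standard error as the bar. Filled circles passed the threshold, open circles did not, crosses give the set-adjusted value, and dotted lines mark −1 and 1; Cxcl3 at 4.38 and Cxcl2 at 3.57 lie farthest right with IL-6, and Cxcl10 at −4.29 farthest left with IL-4.

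Among the neutrophil attractants, Cxcl2 (ENSMUSG00000058427.10, chromosome 5, 90903871 to 90905938, plus strand, GRCm38) had 2.13, 2.08 and 1.78 FPKM in Control #1 to #3 and 0.665, 0.878 and 0.909 in the IL-4 group, while IL-6 #1 to #3 had 28.0, 21.6 and 25.0. The 3 groups did not overlap, with IL-6 highest and IL-4 lowest. The mean with IL-6 was 12.5 times that of control, a log2FC of 3.57 (standard error 0.169, limma adjusted p = 1.92e-05). This rise was called under every alternative tried, including the set-adjusted fit (3.19, limma adjusted p = 0.00404). With IL-4 Cxcl2 was 2.44-fold lower, a log2FC of −1.20 (standard error 0.169, limma adjusted p = 0.00134). The fall passed in all 9 leave-one-out fits, each without 1 library, but its size dropped to −0.72 with a pseudocount of 1 and −0.93 with quantile normalization, below the size asked for. Within the libraries that carry intestinal transcripts, IL-4 #1 had 0.333 times the control mean of Cxcl2. Within the others, the IL-6 mean was 27.9 times that of IL-4 #2 and #3.

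Cxcl3 (ENSMUSG00000029379.10, chromosome 5, 90786103 to 90789600, plus strand), the closest relative of Cxcl2, was barely detected without IL-6. Control #1 to #3 held 5, 6 and 5 fragments of it and the IL-4 libraries 2, 8 and 6, against 223, 404 and 425 in the IL-6 libraries. In FPKM these were 0.0409 to 0.0572 in control and 0.0167 to 0.0755 in the IL-4 group, while IL-6 #1 to #3 had 1.83, 3.54 and 3.96. The control and IL-4 libraries overlapped and all IL-6 libraries lay above both. The ratio of the IL-6 to the control mean was 67.1, and the log2FC of 4.38 (standard error 0.377, limma adjusted p = 0.000355) understates it because the pseudocount exceeds the control values. It ran from 1.93 with a pseudocount of 1 to 5.88 over the alternatives that kept all libraries and passed in each, with an adjusted p of 0.0402 from limma after set adjustment. With IL-4 the log2FC of Cxcl3 was −0.03 (limma adjusted p = 0.96).

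Cxcl1 (ENSMUSG00000029380.11, chromosome 5, 90891241 to 90893115, plus strand) was near the limit of detection in every group. Control #1 to #3 had 11, 6 and 3 fragments of it, the IL-4 libraries 1, 0 and 2, and the IL-6 libraries 31, 29 and 29. The groups did not overlap, but the highest level, in IL-6 #3, was only 0.504 FPKM. Its log2FC with IL-6 was 1.54 (standard error 0.269, limma adjusted p = 0.0214). The library number as a replicate block took that call away (limma adjusted p = 0.0633), as did set adjustment (limma adjusted p = 0.237). It was also lost with a pseudocount of 1 (0.42) or 0.01 (2.23, limma adjusted p = 0.132), and passed in 4 of the 9 leave-one-out fits. Leaving out Control #2 or #3, or any of the IL-6 libraries, ended it (limma adjusted p from 0.07 to 0.0871). With IL-4 the log2FC was −0.82 (limma adjusted p = 0.108), and limma voom on the recovered fragments gave −2.50 (adjusted p = 0.0381). Between IL-6 and IL-4 the log2FC was 2.36 (limma adjusted p = 0.000787), but with a pseudocount of 1 it was 0.55, below the size asked for.

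The platelet chemokine Pf4 was the most abundant member in each library. Pf4 (ENSMUSG00000029373.7, chromosome 5, 90772435 to 90773383, plus strand), which binds heparin, had 268, 410.0 and 371 FPKM in Control #1 to #3 and 107, 119 and 206 in the IL-4 group, while IL-6 #1 to #3 had 999.9, 1553 and 2042. The 3 groups did not overlap. The IL-6 mean was 4.38 times that of control, a log2FC of 2.09 (standard error 0.334, limma adjusted p = 0.00747), which passed in all 9 leave-one-out fits. It did not pass after set adjustment (1.54, limma adjusted p = 0.242). With IL-4 it was 2.43-fold lower, a log2FC of −1.32 (limma adjusted p = 0.0223). This fall was lost with median-ratio rescaling (−1.12, limma adjusted p = 0.0791) and after set adjustment (−1.69, limma adjusted p = 0.0621). It was also lost without Control #2, Control #3, IL-4 #1 or IL-4 #2 (limma adjusted p from 0.0573 to 0.0775). Within the 2 sets, IL-4 #1 had 0.306 times the control mean, and the IL-6 mean was 9.41 times that of IL-4 #2 and #3.

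Ppbp (ENSMUSG00000029372.7, chromosome 5, 90768518 to 90770063, plus strand), whose product is cut into neutrophil-attracting peptides, had 37.5, 56.9 and 48.3 FPKM in control and 30.6, 24.9 and 10.1 in the IL-4 group, while IL-6 #1 to #3 had 194, 283 and 379. The IL-6 libraries all lay above the controls and the IL-4 libraries all below. The mean was 6.00 times that of control with IL-6, a log2FC of 2.55 (standard error 0.420, limma adjusted p = 0.00864). Set adjustment gave 3.49 (limma adjusted p = 0.0645). With IL-4 the log2FC of −1.24 did not pass (standard error 0.420, limma adjusted p = 0.0646). It passed without IL-4 #1 (−1.56, limma adjusted p = 0.0336). The ratio of Pf4 to Ppbp FPKM was 7.15 to 7.67 in control and 5.16 to 5.49 with IL-6. With IL-4 it was 3.50 and 4.80 in #1 and #2 but 20.3 in #3, the library with the highest Pf4 and the lowest Ppbp of its group.

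Transcripts of megakaryocytes and platelets were measured beside Pf4 and Ppbp. Of a list of 10 such markers, all tested and none at 0 in any library, 6 rose with IL-6 and none fell, with a median log2FC of 1.64 beside −0.00 for all tested genes. The examples with the largest changes were Gp1bb at 2.21 and Gp9 at 1.94, both subunits of the receptor for von Willebrand factor, Clec1b at 1.88 and Itga2b, the platelet integrin, at 1.70. With IL-4 3 of the list fell, among them Gp9 and Tubb1, and Vwf rose, with a median of −0.80 beside −0.20 for all tested genes. The shares of all tested genes were 8.89% lower and 5.02% higher with IL-4, and 1.89% lower and 3.49% higher with IL-6. Another of the 6 markers that rose with IL-6 passed the filter only through its IL-6 libraries. The summed FPKM of the 10 markers was 34.7 to 45.2 in control, 31.5 to 41.1 with IL-4 and 77.8 to 151.4 with IL-6. Pf4 FPKM were 7.72 to 9.08 times that sum in control, 2.66 to 6.54 times with IL-4 and 10.3 to 16.3 times with IL-6, without overlap between the groups. For Ppbp the same ratio was 1.08 to 1.26, 0.321 to 0.760 and 1.87 to 3.02. Vwf, which endothelial cells also make, gave 11.0 to 21.4 FPKM of the sum with IL-4 and 5.20 to 7.66 in control. Its rise makes the sum larger and both ratios smaller with IL-4. The gap between IL-4 and control in these ratios thus rests in part on Vwf and does not stand for the other markers. The part of these cells in the Pf4 and Ppbp results was not tested.

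**Figure D3:**
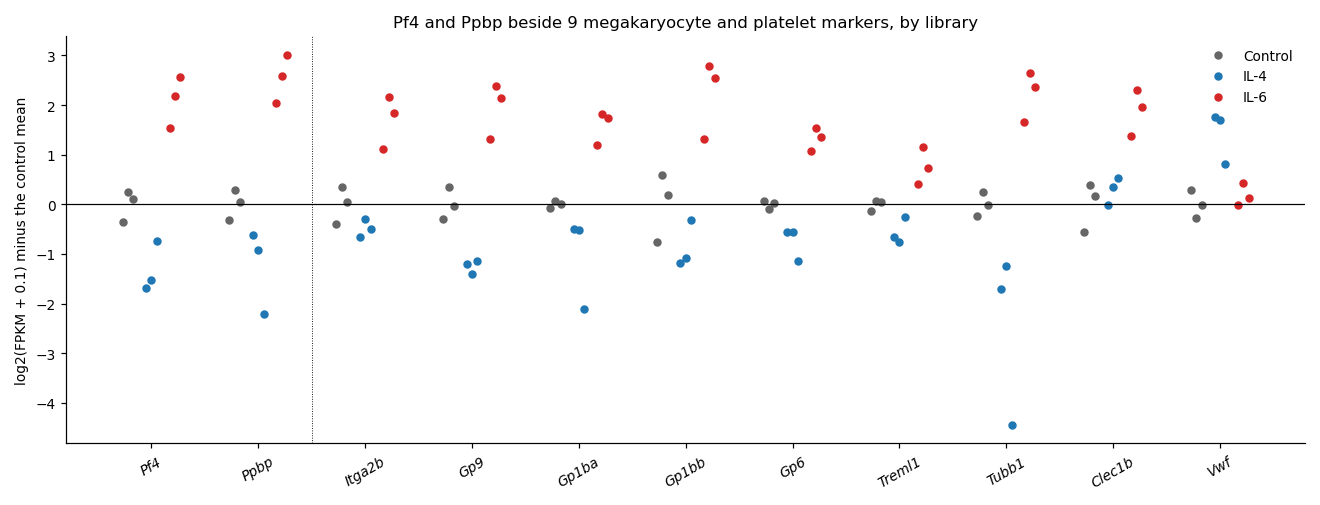
Log2(FPKM + 0.1) of Pf4, Ppbp and 9 of the megakaryocyte and platelet markers in each library, minus the mean of the 3 control libraries (vertical axis). Points are libraries in gray (control), blue (IL-4) and red (IL-6); every IL-6 point of Pf4 and Ppbp lies above the control points, as do those of the markers other than Vwf, and Tubb1 has an IL-4 point far below the others, at 0.0178 FPKM in IL-4 #3.

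The 6 genes from Ppbp to Cxcl2 lie side by side on chromosome 5, in a stretch of 137.4 kb (90768518 to 90905938) with no other protein-coding gene. In order they are Ppbp, Pf4, Cxcl3, Cxcl15, Cxcl1 and Cxcl2. Cxcl15 was at 0 in all 9 libraries, and the other 5 were all called higher with IL-6. They are among the members already counted as higher, so this is no separate result. With IL-6 3.49% of all tested genes were called higher, and 1.61% in the fit without a filter, from which Cxcl1 comes. Cxcl3 passed the filter only through its IL-6 libraries. After set adjustment Cxcl2 and Cxcl3 were still called, and Ppbp (limma adjusted p = 0.0645), Pf4 (limma adjusted p = 0.242) and Cxcl1 (limma adjusted p = 0.237) were not, and Cxcl1 was also lost with the replicate block. Cxcl5, an ELR chemokine just outside the 10 that starts 9.2 kb before Ppbp, rose as well, from 0.401 ± 0.134 FPKM in control to 2.55 ± 0.758 with IL-6 (log2FC 2.4, limma adjusted p = 0.0149), though it passed the filter only through its IL-6 libraries. Of 8 genes outside the stretch but within 250 kb of it, Cxcl5 alone was called against control, with IL-6. Only Cxcl5 and Mthfd2l among them passed the filter. The rest had means of at most 0.0406 FPKM over the 9 libraries, so they could hardly show a change. The nearest neighbor on the other side, Mthfd2l, had a log2FC of 0.20 with IL-6 (limma adjusted p = 0.726), and Areg had 1.06 (limma adjusted p = 0.0983).

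**Figure D4:**
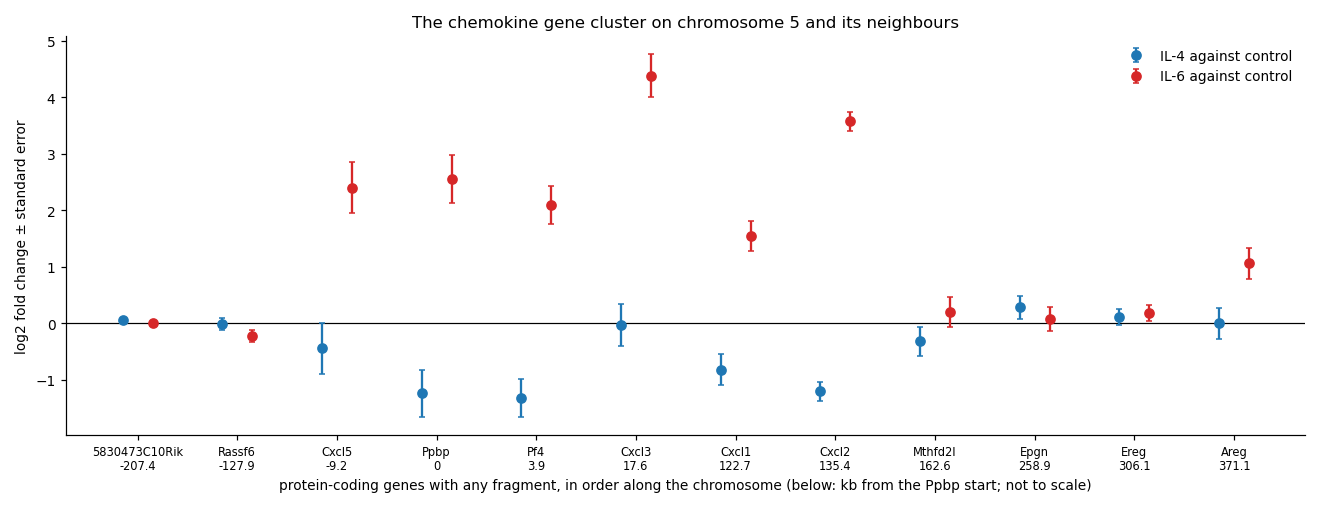
Log2FC against control with its standard error (vertical axis) for protein-coding genes in order along the chromosome 5 chemokine cluster and 250 kb to each side, with IL-4 in blue and IL-6 in red. The number under a gene is its distance in kb from the start of Ppbp, genes are evenly spaced, and Afm and Cxcl15, at 0 in all libraries, are left out; the red points rise above 1.5 from Cxcl5 to Cxcl2 and lie near 0 at Mthfd2l.

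The promoters of Cxcl1, Cxcl2 and Cxcl3, 3 of the 4 genes with ELR, are printed for the motif matches they hold. The sequences are from RefSeq on GRCm38.p6, read 5′ to 3′ on the gene's strand. They are chr5:90891125-90891224 for Cxcl1, chr5:90903779-90903868 for Cxcl2 and chr5:90785981-90786080 for Cxcl3, all on the plus strand and all ending before the transcription start. Capitals mark the fixed letters of matches to an NF-kB motif (GGG and TTCC with 3 bases between, on either strand) and to the TATA box motif TATAAA.
Cxcl1: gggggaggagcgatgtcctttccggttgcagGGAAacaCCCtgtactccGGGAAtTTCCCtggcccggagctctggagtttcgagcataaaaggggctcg
Cxcl2: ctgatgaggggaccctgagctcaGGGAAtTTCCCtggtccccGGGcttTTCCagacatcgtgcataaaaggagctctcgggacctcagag
Cxcl3: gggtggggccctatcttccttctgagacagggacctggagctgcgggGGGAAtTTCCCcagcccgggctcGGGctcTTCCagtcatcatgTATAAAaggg

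All 3 hold GGGAATTTCC, which matches on both strands in overlap, at −71, −97 and −73 from the RefSeq start in Cxcl1, Cxcl2 and Cxcl3, and each holds another match nearby. Of 32851 promoters of the same length, 250 bases before to 50 after the start, 5.56% held the NF-kB motif and 13.6% the TATA motif. Of the 10 genes, 9 were in the promoter table. The NF-kB motif was found in Cxcl1, Cxcl2, Cxcl3 and Cxcl10, and not in Ppbp, Pf4, Cxcl9, Cxcl12 or Cxcl14 within this window. Ppbp, which has ELR, and Pf4 were called higher with IL-6 without a match (log2FC 2.55 and 2.09). Cxcl10 was not called with IL-6 despite its matches (0.48). Ppbp had TATAAA at −30 and −8, Cxcl3 at −30 and Cxcl9 at −195. The letters are a description of the window and no measurement of binding.

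A list of 12 NF-kB responsive inflammatory genes was examined beside the neutrophil attractants. With IL-6 4 of the 11 tested rose and none fell, against 3.49% and 1.89% of all tested genes. Their median log2FC was 0.86 beside −0.00 for all tested genes. With IL-4 5 fell and none rose, against 8.89% and 5.02%, with a median of −0.93 beside −0.20. The gene below the filter, Il6, was called higher with IL-4 in the fit without one (log2FC 2.53, limma adjusted p = 0.00102). The 4 that rose were Il1b (4.47), the prostaglandin synthase Ptgs2 (3.68), Tnf (1.38) and the inhibitor Nfkbia (1.36). Ptgs2 passed the filter only through its IL-6 libraries. Il1b had 65.6, 69.5 and 79.6 FPKM with IL-6 and 2.14 to 3.76 in control. Over the 9 libraries the genes with a mean of at least 5 FPKM whose log2(FPKM + 0.1) was most like that of Cxcl2 were Clec4e (Pearson r = 0.998), a receptor for mycobacterial glycolipid, Il1b and Cd302 (both 0.997). For Cxcl3 they were Ddit4 (0.995), Socs3 (0.986), the feedback inhibitor induced by IL-6, and Ms4a6d (0.985). The 9 points share 3 groups, so these values describe group means as much as single libraries.

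Neutrophil and granule transcripts were also present. Their 10 markers summed to 4986 to 8845 FPKM in control, 2222 to 4150 with IL-4 and 8134 to 11308 with IL-6, none was at 0 in any library, and 9 of the 10 fell with IL-4 while 1 rose with IL-6. Of 9 Mϕ markers 5 fell with IL-4 and 2 rose with IL-6, and none was at 0. Beside both lists, 8.89% of all tested genes fell with IL-4 and 3.49% rose with IL-6. The Mϕ markers summed to 6259.8 to 7365 FPKM with IL-4, 17016 to 19483 in control and 21401 to 22279 with IL-6. Most of each sum was Lyz2, at 4479 to 5734 FPKM with IL-4, 13786 to 16064 in control and 17852 to 18964 with IL-6. Adgre1 and Csf1r were not called with IL-6 (log2FC −0.12 and −0.03), so the sum does not stand for every marker. Neutrophils and Mϕs both transcribe Cxcl2, and the part of these cells in the results was not tested. The sums were 8.84 to 21.7 FPKM for 4 B cell markers, of which none was called, and 0.572 to 3.17 for 6 T and NK cell markers, of which Cd8a and Trac were called higher with IL-4 (log2FC 1.76 and 1.64, no filter). The sums of 12 skeletal muscle genes, of which none was called, were 1.01 to 1.43 FPKM wherever intestinal transcripts were high (all controls plus IL-4 #1) and 5.79 to 12.1 FPKM in the 5 libraries where they were low. The part of this difference in the results was not tested. The 16 intestinal genes were used to draw the sets, and the high set holds every control and no IL-6 library. That 8 of them were called lower with IL-6 and 3 lower with IL-4 restates this split and is no separate result.

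Of the interferon-induced pair, Cxcl10 (ENSMUSG00000034855.13, chromosome 5, 92346638 to 92348889, minus strand) had the largest fall with IL-4 of the 10. It had 5.70, 4.12 and 3.02 FPKM in control and 0.104, 0.220 and 0.0556 in the IL-4 group, while IL-6 #1 to #3 had 6.24, 6.49 and 4.83. The IL-4 libraries, with 5 to 15 fragments each, lay far below all others, while control and IL-6 overlapped. The mean was 33.8-fold lower with IL-4, a log2FC of −4.29 (standard error 0.320, limma adjusted p = 5.7e-05), and this call was kept in every alternative, the set-adjusted fit included, at −4.38. Since the IL-4 values are close to the pseudocount, the size ran from −2.20 with a pseudocount of 1 to −5.22 with limma voom. IL-4 #1 had 0.0243 times the control mean of its own set. With IL-6 the log2FC of 0.48 did not pass (standard error 0.320, limma adjusted p = 0.469), and IL-6 against IL-4 gave 4.77 (limma adjusted p = 2.1e-05). Of its 50-base stretches 3.59% also occur in Art3, which overlaps it on the opposite strand and reached at most 0.0510 FPKM.

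Cxcl9 (ENSMUSG00000029417.9, chromosome 5, 92321347 to 92328079, minus strand), the neighbor of Cxcl10, differed between libraries of the same group by more than between groups. It had 0.551, 0.0774 and 0.142 FPKM in control and 0.485, 0.372 and 0.0332 in the IL-4 group, while IL-6 #1 to #3 had 0.200, 0.152 and 0.227. The groups overlapped in every comparison. The log2FC of Cxcl9 was 0.13 for IL-4 (limma adjusted p = 0.964) and −0.06 for IL-6 (limma adjusted p = 1), both with a standard error of 0.646. Cxcl9 had 4 to 58 fragments per library.

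Of 13 interferon-responsive genes, all tested, 6 fell and 2 rose with IL-4, against 8.89% and 5.02% of all tested genes. Their median log2FC was −1.53 beside −0.20 for all tested genes. With IL-6 none was called by limma, with a median of 0.41 beside −0.00, while 3.49% of all tested genes rose and 1.89% fell. The largest changes with IL-4 were Ifit3 (−3.90), Ifit1 (−2.66) and Mx1 (−2.35), all antiviral, and Gbp2 (2.57), a guanylate-binding protein, which rose. Ifit3 fell from 18.2 to 22.8 FPKM in the control libraries to 0.927 to 1.93 with IL-4. The list thus did not move as a block, and Gbp2 had 262, 92.6 and 44.2 FPKM in IL-4 #1 to #3. The genes most like Cxcl10 were Gpr162 and S1pr1 (both r = 0.992) and Atp13a2 (0.991). The Cxcl10 promoter is shown for its motifs. It is chr5:92348980-92349109 on the minus strand, from RefSeq on GRCm38.p6, printed 5′ to 3′ along the gene, with the fixed letters of the interferon motif (TTTC and TTTC with 2 bases between, here on the other strand) and of 2 NF-kB matches in capitals.
Cxcl10: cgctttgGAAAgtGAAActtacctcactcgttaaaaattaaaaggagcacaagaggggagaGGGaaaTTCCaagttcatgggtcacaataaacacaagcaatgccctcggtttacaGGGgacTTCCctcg

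The interferon match stood at −213 and the NF-kB matches at −159 and −104 from the start. The interferon motif was in 3.44% of promoters and, among the 9 genes, only in Cxcl10 and Cxcl14. A STAT motif of TTC and GAA with 3 bases between was found in Cxcl14 alone, at −191, and in 8.30% of promoters. The same letters with 4 bases between were in none of the 9 and in 6.95% of promoters. Pf4 and Cxcl12 held none of the 5 motifs.

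Cxcl14 (ENSMUSG00000021508.11, chromosome 13, 56288643 to 56296551, minus strand) alone among the 10 was called lower with IL-6. It had 4.44, 4.45 and 4.88 FPKM in control and 3.19, 3.67 and 4.39 in the IL-4 group, while IL-6 #1 to #3 had 0.565, 0.754 and 0.980. The IL-6 libraries lay far below the others, and the highest IL-4 library was just under the lowest control library. The mean was 5.99-fold lower with IL-6, a log2FC of −2.46 (standard error 0.208, limma adjusted p = 0.000335). The fall was called under every alternative, the set-adjusted fit included, at −2.79 (limma adjusted p = 0.0218). The IL-6 mean was also 0.190 times that of IL-4 #2 and #3 of the same set. With IL-4 the log2FC of −0.30 did not pass (limma adjusted p = 0.337), and IL-6 against IL-4 gave −2.17 (limma adjusted p = 0.000128). Snx5 (r = 0.976), Cyp4f18 and Idh3g (both 0.975) were most like it.

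Cxcl16 (ENSMUSG00000018920.11, chromosome 11, 70453983 to 70459984, minus strand) had the smallest spread of the abundant members. It had 48.4, 55.0 and 47.3 FPKM in control and 14.0, 11.4 and 17.3 in the IL-4 group, while IL-6 #1 to #3 had 99.7, 104 and 101. The 3 groups were far apart. With IL-4 the mean was 3.53-fold lower, a log2FC of −1.83 (standard error 0.155, limma adjusted p = 0.000105), and every alternative kept the call. With IL-6 it was 2.02 times that of control, a log2FC of 1.02 (limma adjusted p = 0.00564) at the edge of the size asked for. Without Control #1, Control #3 or IL-6 #2 the size was 0.97 to 1.00 and the call was lost, and after set adjustment it was 1.01 (limma adjusted p = 0.158). Between IL-6 and IL-4 the log2FC was 2.85 (limma adjusted p = 6.27e-06). Of the 50-base stretches of Cxcl16, 16.9% also lie in Zmynd15, which overlaps its end on the other strand. Zmynd15 had 4.15 to 5.25 FPKM in control, 0.318 to 0.856 with IL-4 and 12.1 to 12.3 with IL-6. The methods name a stranded library kit, but whether the counting used strand is not stated. Whether fragments in the overlap were assigned to the right gene is therefore not known. Ccrl2 (r = 0.998), an atypical chemokine receptor, and AB124611 (0.994) were most like Cxcl16.

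Cxcl12 (ENSMUSG00000061353.11, chromosome 6, 117168535 to 117181367, plus strand), which marrow stromal cells make in large amounts, had 2 to 22 fragments per library and 0.00716 to 0.0771 FPKM. The groups overlapped and no comparison passed (log2FC −0.05 with IL-4 and −0.03 with IL-6, limma adjusted p = 0.947 and 1). The 8 stromal and fibroblast markers summed to 0.309 to 0.810 FPKM, with Dcn, Lum, Lepr and Pdgfra at 0 in some libraries and none called. The 5 endothelial markers summed to 0.248 to 1.11, and Kdr was called lower with IL-4 (−1.02, no filter).

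The remaining CXC ligands were low. Besides Cxcl5, Cxcl13, the B cell attractant, was at 0 in all control and IL-4 libraries and had 0.249, 0.240 and 0.595 FPKM with IL-6. Cxcl11 was at or near 0, and Cxcl15 and Cxcl17 were at 0 throughout. The genes most like Pf4 were C1qa (r = 0.987), Hp (0.986) and Slpi (0.983), and those most like Ppbp were Tnfrsf1a (0.994), Relt (0.990) and Rgs18 (0.987), a regulator of G-protein signaling in platelets.

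Of 12 receptors and binding partners of CXC ligands, 7 were tested, and with IL-4 3 fell and 3 rose, against 8.89% and 5.02% of all tested genes. Those with the largest changes were Cd74 (4.01) and Sdc1 (2.69), which rose, and Cxcr3 (−3.46) and Cxcr4 (−1.88), which fell. Cxcr3, the receptor of Cxcl9 and Cxcl10, had 3.98 to 6.17 FPKM in control, 0.275 to 0.438 with IL-4 and 2.02 to 2.35 with IL-6, without overlap. With IL-6 Sdc4 rose (1.41) and Cxcr3 fell (−1.14), against 3.49% and 1.89% of all tested genes. Cxcr2, named after its values were seen because the ELR ligands act through it, fell with IL-4 (−1.17, limma adjusted p = 0.0077) from 11.3 to 14.2 FPKM to 4.18 to 7.00, and had 10.1 to 15.8 with IL-6.

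Enzymes and decay factors that act on CXC chemokines or their mRNA were called in both directions. Of 12 genes, 11 were tested. With IL-4 5 fell and 1 rose, against 8.89% and 5.02% of all tested genes. With IL-6 2 rose and 1 fell, against 3.49% and 1.89%. Mmp12, a Mϕ elastase that inactivates ELR chemokines, rose with IL-4 (log2FC 3.48) from 90.6 to 152 FPKM in control to 1164 to 1463, and fell with IL-6 (−2.53) to 17.7 to 20.7. Mmp14, a membrane-bound metalloproteinase, fell with IL-4 (−3.68) and rose with IL-6 (2.27). Mmp8, which neutrophils store in their granules, rose with IL-6 (1.38). Zfp36l1, which promotes decay of AU-rich mRNAs, fell with IL-4 (−1.88), and so did Mmp9 (−1.80).

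The CC chemokines, a sister family, are given for their counts. Of 13, 11 were tested, and with IL-4 8 were called higher and 2 lower, against 5.02% and 8.89% of all tested genes. The largest changes on the log2 scale were Ccl24 (6.76), Ccl8 (5.77), Ccl7 (3.99) and Ccl22 (3.75). Ccl22 passed the filter only through its IL-4 libraries. With IL-6 4 were called higher and 1 lower, against 3.49% and 1.89%, led by Ccl8 at 7.73. For the 10 CXC genes these counts were 0 and 4 for IL-4, against 6 and 1 for IL-6. No test of the difference between the families was made.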

How the data were processed

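RNA-seq libraries of mouse Mϕs, 3 without cytokine, 3 with IL-4 and 3 with IL-6, were analysed from a table of FPKM that the authors deposited. The methods and the submitters' processing notes name STAR 2.4.2a, GRCm38, Cufflinks 2.2.1 and GENCODE M5. Of the 53379 identifiers 94.8% matched GENCODE M21 with their version, and coordinates are from M21. All low values were whole fragments over exon lengths (100.0% of 100940 values up to 100 fragments, within 0.05), as a read counter gives, so the program behind the table is not settled. Library totals, 29988160 to 39909571 fragments, were read from these steps.

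Log2(FPKM + 0.1) was modeled in limma 3.58.1 (R 4.3.3, trend and robust options). The code was also run on simulated counts with the same spread for all genes and no difference between the sets of libraries. That run therefore does not bear on the sets or on the spread in these data. Alternatives were other pseudocounts, filters and scalings, set adjustment, a replicate block, limma voom on recovered fragments, no moderation options, only the groups compared, and leaving out each library. The members, the gene lists and the marker lists were chosen with earlier results of these data known. All 10 members are named, and of each other list at most 4, those called with the largest log2 fold change in a comparison. Like genes are the 3 with the highest r to a member. A like gene of Cxcl16 and a platelet marker are not reported here by name, though counts and sums include the marker. P-values rest on the spread between libraries within a group, which a single fit shares over the 3 groups. Limma draws this spread toward that of other genes. The main fit holds no term for the library number.

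The library numbers were taken to mark the mice, since the series names 3 and the table's columns carry a number 1 to 3 for them. Deviations from group means of same-numbered libraries correlated at 0.521, −0.415 and 0.0777 between control and IL-4, at 0.408, 0.201 and 0.166 between control and IL-6, and at 0.281, −0.0612 and 0.153 between IL-4 and IL-6. Protein sequences were not used here. Plots were made with matplotlib 3.10.9.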

Additional observations from a re-analysis of the deposited data

How the results depend on the processing

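Over the 10 genes and 3 comparisons, 600 values were recomputed, 270 of them by leaving out a library. Of these, 574 kept their side of the threshold, 24 were no longer called, 2 became called and no called value reversed. With the replicate block 4 members were called with IL-4 and 6 with IL-6, where Cxcl1 was lost, and 8 between the cytokines; no other member's call changed. Set adjustment lowered the members called for IL-6 against control from 7 to 3 and the genes called from 690 to 187, and it lowered the genes called with IL-4 from 1784 to 1111. Asking for a mean of at least 5 FPKM tested fewer genes and left 847 for IL-4, 306 for IL-6 and 1219 between the cytokines. Leaving out a library gave 394 to 1009 genes for IL-6 against control, lowest without Control #3 (394), IL-6 #3 (398), IL-6 #2 (415) and Control #2 (452) and highest without IL-4 #3. Median-ratio rescaling moved the median of all genes for IL-4 against control from −0.20 to −0.01. Each group holds 3 libraries, and Cxcl1, Cxcl9 and Cxcl12 rest on few fragments.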
